A study of Homo sapiens with 6 samples.

Results

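The 8 genes described here encode the anchoring apparatus of an epithelial cell, the hemidesmosome, and chains of the laminin it binds: LAMA3, LAMB3, ITGA6, ITGB4, COL17A1, CD151, PLEC and DST. They were picked by symbol from the 36459 gene symbols of the gene count table, with no measured value in the rule, and each symbol was found once. RNA was sequenced from the lung adenocarcinoma line PC9, whose EGFR gene carries an activating mutation, in 2 states with 3 libraries each. Parental cells were grown without drug, and persister PC9 were what remained of the culture when 15 µM erlotinib, which blocks the EGFR kinase, had been present for 6 days. The parental libraries came from 3 cultures, and the persister libraries from 9 separately grown cultures that were pooled. All libraries are of the same line, so a change describes this line under this drug.

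The hemidesmosome is the junction that ties the keratin filaments of an epithelial cell to the basement membrane beneath it. Its receptor is integrin α6β4, whose long β4 tail binds plectin inside the cell and whose outer part, with collagen XVII, meets laminin-332 outside it. Laminin-332 is a trimer that holds the α3 and β3 chains encoded by LAMA3 and LAMB3, and loss of any of these proteins is known to cause skin blistering. In carcinoma cells the same proteins also take part in migration and in signalling from growth factor receptors.

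Sequences that lie just before some of the start sites compared further on are given first. They are upstream promoter bases from RefSeq on GRCh38.p14, 5′ to 3′ on the strand of the gene, without annotated exons. Entries were found for 5 of the 8 genes, COL17A1, ITGA6, LAMA3, LAMB3 and DST. Capitals mark each match, on either strand, to the AP-1 motif TGANTCA, the GC box GGGCGG or the TATA box TATAAA, and no match overlapped another. The windows shown are those of the gene that fell most, of the LAMA3 start that rose, of both LAMB3 starts compared below and of the epithelial DST start. Of the entries not shown, that of ITGA6-204 held 1 TATA box match, that of LAMB3-202 1 GC box and that of DST-241 4 GC boxes. The entries of the upstream DST-202 and of ITGA6-202 held none.
COL17A1, chr10:104085881-104086130, minus strand: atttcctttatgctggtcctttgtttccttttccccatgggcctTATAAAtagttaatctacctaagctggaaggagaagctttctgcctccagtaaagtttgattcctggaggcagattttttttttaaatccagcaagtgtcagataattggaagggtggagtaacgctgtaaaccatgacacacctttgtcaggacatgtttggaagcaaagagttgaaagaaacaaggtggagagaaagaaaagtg
LAMA3, start of the short α3A transcript, chr18:23872770-23873019, plus strand: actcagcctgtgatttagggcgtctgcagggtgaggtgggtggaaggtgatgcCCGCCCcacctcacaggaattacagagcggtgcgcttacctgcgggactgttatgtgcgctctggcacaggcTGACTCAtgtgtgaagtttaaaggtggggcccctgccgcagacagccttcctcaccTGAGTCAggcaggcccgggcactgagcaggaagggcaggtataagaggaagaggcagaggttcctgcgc
LAMB3, distal start, chr1:209652426-209652675, minus strand: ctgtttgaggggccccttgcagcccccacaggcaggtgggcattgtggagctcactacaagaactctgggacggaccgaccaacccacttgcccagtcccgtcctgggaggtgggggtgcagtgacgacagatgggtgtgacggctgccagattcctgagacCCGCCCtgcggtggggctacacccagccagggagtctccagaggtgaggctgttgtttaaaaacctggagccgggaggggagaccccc
LAMB3, proximal start, chr1:209651395-209651624, minus strand: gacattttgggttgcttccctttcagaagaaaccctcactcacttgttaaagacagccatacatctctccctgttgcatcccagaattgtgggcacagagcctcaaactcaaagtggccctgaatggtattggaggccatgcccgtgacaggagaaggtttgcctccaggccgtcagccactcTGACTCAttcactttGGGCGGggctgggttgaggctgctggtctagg
DST, start of the epithelial transcript, chr6:56642997-56643139, minus strand: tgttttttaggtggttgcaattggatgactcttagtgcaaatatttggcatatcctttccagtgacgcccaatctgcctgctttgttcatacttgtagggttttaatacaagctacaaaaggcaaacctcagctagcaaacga
The LAMA3 window held 2 AP-1 matches and 1 GC box, and the proximal LAMB3 window held 1 AP-1 match and 1 GC box. The distal LAMB3 window held 1 GC box, COL17A1 held 1 TATA box match 206 bases before its start, and the DST window held none of the motifs. Over the 250 upstream bases of 35116 RefSeq promoters, 6.57% held the AP-1 motif, 42.6% the GC box and 10.7% the TATA box. The proximal LAMB3 and the DST windows are shorter, 230 and 143 bases, because the bases nearer exons were left out.

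In persister PC9 the genes of the anchoring apparatus moved apart. By gene count, the genes of collagen XVII and of both integrin chains, COL17A1, ITGB4 and ITGA6, fell. Both laminin genes, both plakin genes and the tetraspanin gene CD151 rose, though the epithelial transcript of DST was not called. All 8 genes passed the filter on low counts, and all 8 were called at an adjusted p under 0.01 in edgeR's quasi-likelihood test, 5 higher and 3 lower. Among all 14626 genes tested 56.8% were called, 28.7% higher and 28.1% lower, so a call alone was common in this comparison. A call with a fold change above 2 was made for 3 of the 8, COL17A1, ITGB4 and LAMA3, and for 11.6% of all genes. The 3 libraries of one group did not overlap those of the other for any of the 8 genes, which held for 71.3% of all genes, 35.5% higher and 35.7% lower in persister libraries. The median log2 fold change of the 8 genes was 0.63, beside -0.01 over all genes. Values are counts scaled to library size after TMM normalization (CPM), as mean ± SD of 3 libraries, and fold changes are persister over parental on the log2 scale. In bulk RNA a lower share of cells with a transcript and less of it per cell cannot be told apart.

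**Figure D1:**
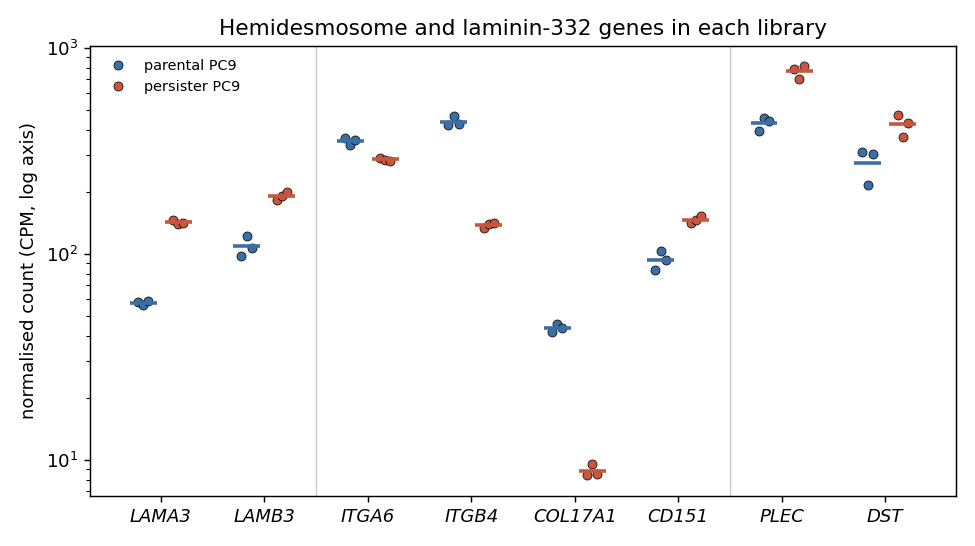
Normalised count (CPM, log axis) of each of the 8 genes in the 3 parental (blue) and 3 persister (red) libraries, with a bar at each mean. In every gene the red points lie clear of the blue ones, and COL17A1 shows the widest step, from 43.6 to 8.81 CPM.

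The marker genes of the line bear on what these cells are. Of 10 lung epithelial line markers 8 were tested, at a summed 8036 to 8675 CPM in parental and 6388 to 6763 CPM in persister libraries. The markers did not move as one. In edgeR 5 were called lower, 1 was not called and 2 were called higher, CDH1 (log2 fold change 0.60) and KRT7 (0.46). That is 87.5% called, beside 56.8% of all genes. NKX2-1 and NAPSA reached at most 1 and 11 counts in any library. Of 7 keratinocyte markers 5 were tested, at a summed 55.8 to 61.8 CPM and 47.7 to 49.4 CPM, and KRT1 was at 0. The sum hides opposite changes. In edgeR TP63 (log2 fold change -3.27) and KRT15 (-2.06) were called lower. KRT14 (2.61) and KRT10 (0.24) were called higher, and KRT5 was not called, which is 80% called. KRT10 alone had a mean of 26.9 CPM in parental and 31.7 CPM in persister libraries. Of 8 fibroblast markers 2 were tested, COL1A1 and PDGFRB, at a summed 10.3 to 10.9 CPM and 27.3 to 30.5 CPM, while COL3A1 was at 0 in all libraries. Of 7 immune and endothelial markers 5 were tested, at a summed 83.3 to 84.8 CPM and 22.6 to 26.1 CPM, mostly from CD68.

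Both laminin-332 chains described here rose. LAMA3, the α3 chain, which carries the domains that integrins bind, had 57.9, 56.0 and 58.5 CPM in parental and 146, 139 and 141 CPM in persister libraries 1 to 3. Every persister library was more than 2 times as high as any parental one. The log2 fold change was 1.31 (SE 0.04, edgeR adjusted p = 5.09e-10), and it ranked 568 among all genes by the size of its rise. LAMB3, the β3 chain, had 97.3, 122 and 107 CPM in parental and 181, 190 and 198 CPM in persister libraries. The parental libraries were more spread than the persister ones, but the groups stayed apart, with a log2 fold change of 0.81 (SE 0.07, edgeR adjusted p = 2.08e-06). The count of LAMA3 per count of LAMB3 went from 0.535 ± 0.068 to 0.751 ± 0.048, with no overlap.

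The genes of integrin α6β4 fell unequally. ITGB4, the β4 chain, found only in partnership with α6, had 420, 466 and 426 CPM in parental and 132, 139 and 141 CPM in persister libraries. The persister libraries were closely grouped and far below the parental ones, with a log2 fold change of -1.67 (SE 0.05, edgeR adjusted p = 3.51e-10). ITGA6, the α6 chain, which also pairs with β1, had 364, 338 and 356 CPM in parental and 292, 286 and 281 CPM in persister libraries. Its groups did not overlap, but the log2 fold change was only -0.30 (SE 0.04, edgeR adjusted p = 3.97e-05), and 52.8% of the genes tested had a larger change in either direction. The count of ITGB4 per count of ITGA6 therefore dropped from 1.24 ± 0.12 to 0.481 ± 0.026. This ratio is within a library and does not depend on the scaling between libraries.

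COL17A1 encodes collagen XVII, the transmembrane collagen of the hemidesmosome, and fell most of the 8. It had 41.7, 45.5 and 43.5 CPM in parental and 8.39, 9.53 and 8.52 CPM in persister libraries, from counts of 1435, 1547 and 1465 and of 245, 300 and 291. The log2 fold change was -2.30 (SE 0.06, edgeR adjusted p = 3.21e-10), and it ranked 158 among all genes by the size of its fall. The study names this gene among its leading changes from data that include these libraries, so the value is not independent evidence of its direction. COL17A1 fell beyond ITGB4: its count per count of ITGB4 went from 0.0997 ± 0.0023 to 0.0641 ± 0.0043, with no overlap.

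CD151, the tetraspanin that binds laminin-binding integrins and is needed for stable hemidesmosomes, moved opposite to its integrin. It had 83.6, 103 and 93.3 CPM in parental and 140, 146 and 152 CPM in persister libraries, a log2 fold change of 0.65 (SE 0.07, edgeR adjusted p = 7.31e-06). Its count per count of ITGA6 went from 0.265 ± 0.038 to 0.510 ± 0.030. CD151 overlaps POLR2L on the other strand, as ITGB4 overlaps GALK1, and whether counting used the strand is not given in the sources used here.

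The plakins link the integrin and collagen XVII to keratin, and the gene counts of both plakin genes rose. PLEC, plectin, had 393, 455 and 442 CPM in parental and 786, 704 and 810 CPM in persister libraries, a log2 fold change of 0.83 (SE 0.06, edgeR adjusted p = 6.06e-07). DST, dystonin, had 311, 216 and 303 CPM in parental and 472, 369 and 429 CPM in persister libraries. Parental library 2 was low and persister library 2 was the lowest of its group, so DST had the widest error of the 8, with a log2 fold change of 0.62 (SE 0.12, edgeR adjusted p = 0.00113). DST encodes neuronal and muscle forms as well as the epithelial one, and its gene count mixes them. The transcript of the epithelial form, DST-205, was not called (log2 fold change -0.14, edgeR adjusted p = 0.499) and is described below.

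By gene, the members lie far apart in the genome (GENCODE 44, GRCh38). COL17A1 (ENSG00000065618) spans chr10:104031286-104085880 and LAMB3 (ENSG00000196878) chr1:209614870-209652425, both on the minus strand, as is DST (ENSG00000151914) at chr6:56457987-56954830. On the plus strand are ITGA6 (ENSG00000091409) at chr2:172427354-172506459, ITGB4 (ENSG00000132470) at chr17:75721328-75757818, LAMA3 (ENSG00000053747) at chr18:23689453-23956222 and CD151 (ENSG00000177697) at chr11:832887-839831. PLEC (ENSG00000178209) is on chromosome 8.

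Per length, the order of the genes changed. CPM was divided by the count-weighted length of the transcripts of each gene in kilobases, and for COL17A1 by the 5612 bases of its reference transcript. In parental libraries ITGB4 was highest at 82.0 ± 4.63 CPM per kilobase, followed by ITGA6 at 64.7 ± 2.51 and CD151 at 62.0 ± 6.44, whose libraries overlapped. PLEC at 29.8 ± 2.23 and LAMB3 at 27.6 ± 3.14 CPM per kilobase overlapped as well. DST at 17.6 ± 3.35, LAMA3 at 9.42 ± 0.21 and COL17A1 at 7.76 ± 0.33 CPM per kilobase were separate. In persister libraries CD151 was highest at 97.0 ± 3.89 CPM per kilobase. PLEC at 53.1 ± 3.86 overlapped both ITGA6 at 52.5 ± 1.03 and LAMB3 at 48.2 ± 2.19 CPM per kilobase, while the latter pair did not overlap each other. DST at 26.9 ± 3.28 overlapped ITGB4 at 25.8 ± 0.87 and LAMA3 at 23.3 ± 0.53 CPM per kilobase, and ITGB4 lay above LAMA3 in every library. COL17A1 was last at 1.57 ± 0.11 CPM per kilobase.

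**Figure D2:**
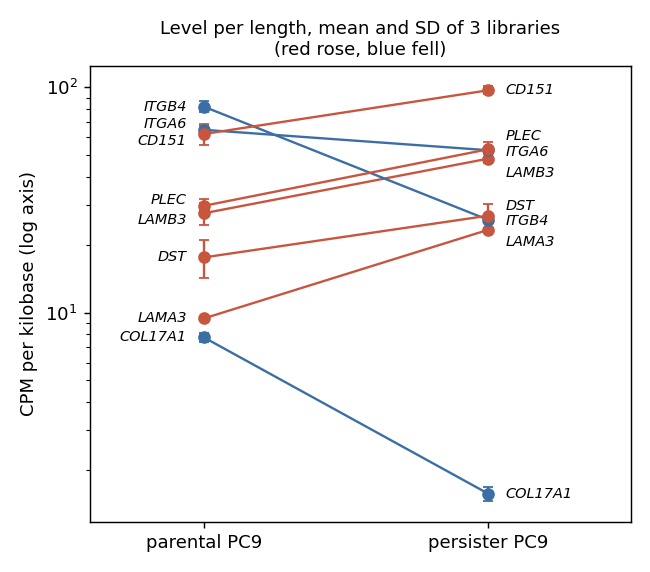
Mean level per length (CPM per kilobase, log axis) of the 8 genes in parental and persister PC9, with error bars of 1 SD over 3 libraries and lines joining the groups. The line of ITGB4 crosses downward from first place at 82.0 to 25.8, and COL17A1 drops to 1.57 from 7.76.

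The gene count of COL17A1 was set beside the sum of its transcripts. The 10 transcripts that the annotation places in COL17A1 summed to 127, 48 and 77 counts in parental and 20, 26 and 20 counts in persister libraries, which is 3.10% to 8.85% of the gene count. COL17A1-208 and COL17A1-201, the full-length transcripts, of 1497 and 1415 codons, were at 0 in all 6 libraries. For the other 7 genes the sum differed from the gene count by at most 6 counts. The missing 1308, 1499 and 1388 and 225, 274 and 271 counts matched, within 1 count in each library, those of a single transcript of the table with no entry in GENCODE 44, ENST00000353479.10. The next closest of 188753 transcripts was off by up to 94 counts. With that transcript added, the sum lay within 1 count of the gene count in each library. It was assigned by its counts alone, since no table used here pairs its identifier with a gene.

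On the 10 matched transcripts alone, the log2 fold change of COL17A1 was -1.82 (SE 0.35, edgeR adjusted p = 0.00156), beside -2.30 on the gene count. The matched sum as a percentage of the gene count was 5.74 ± 2.90 in parental and 7.90 ± 0.93 in persister libraries, with overlapping groups. The unmatched transcript itself had 41.7 ± 3.28 CPM in parental and 8.08 ± 0.53 CPM in persister libraries, a log2 fold change of -2.37 (SE 0.09, edgeR adjusted p = 6.60e-05 over all transcripts). Of the matched transcripts, COL17A1-210 had 118, 34 and 46 counts in parental and 0 in each persister library, and COL17A1-202 had 0 in each parental and 20, 17 and 13 counts in persister libraries. These are partial transcripts with few counts, and edgeR called neither (adjusted p = 0.0138 and 0.0159), while DESeq2 called both. The matched sum was under 90% of the gene count for 14.8% of the genes tested and under 10% for 7.40%. These shares do not separate genes with an unmatched transcript from genes whose symbol differs between the count table and the annotation. How many genes lack a main transcript, like COL17A1, was therefore not tested.

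**Figure D3:**
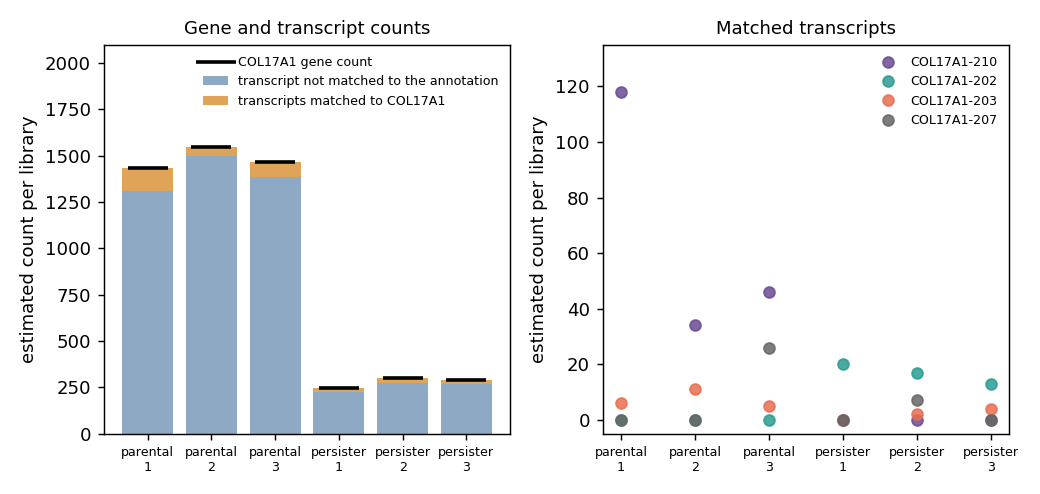
Estimated counts per library. Left, COL17A1 gene count (black line) over stacked bars of the transcript without an annotation entry (blue) and the matched transcripts (orange), which together reach the line. Right, counts of 4 matched transcripts, where COL17A1-210 is at 34 to 118 in parental and 0 in persister libraries.

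The transcripts of the 8 genes were then tested one by one. Of 130 transcripts of the 8 genes, the unmatched one included, 62 passed the filter, and at the transcript level edgeR called 5 higher and 7 lower. DESeq2 called 24, 15 higher and 9 lower, and edgeR with the replicate number as a block called 3. The background among 54499 transcripts in edgeR without the block was 7.8% called, 3.89% higher and 3.91% lower. The share of all transcripts called by DESeq2 or with the block was not computed. The DESeq2 calls given here and below therefore have no background beside them. The count of 12 was 7 without parental library 3, 7 without persister library 1 or 2 and 6 without persister library 3. Kallisto divides reads among overlapping transcripts, and the error of that division enters no test here.

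LAMA3 has a short and a long form with separate starts. LAMA3-201, of 1724 codons, is the short α3A form found in the laminin-332 of hemidesmosomes, and begins at the LAMA3 promoter printed above with its AP-1 matches. It had 31.0, 37.7 and 30.5 CPM in parental and 103, 91.1 and 107 CPM in persister libraries, a log2 fold change of 1.60 (SE 0.11, edgeR adjusted p = 4.26e-04). LAMA3-202, of 3333 codons, is the long α3B form from an upstream start, and its 11.1 to 13.5 and 14.3 to 17.1 CPM were not called (log2 fold change 0.36, SE 0.11, edgeR adjusted p = 0.0955). LAMA3-210, which has no defined coding sequence in the annotation, had 9.43 ± 2.39 and 17.3 ± 4.50 CPM and was not called in edgeR (adjusted p = 0.0872). The count of the short form per count of the long form went from 2.75 ± 0.58 to 6.44 ± 0.48, with no overlap.

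LAMB3 has a distal and a proximal start that give the same 1172 codons. LAMB3-201, from the distal start, whose printed window has a GC box and no AP-1 match, had 78.8, 98.2 and 84.7 CPM in parental and 160, 170 and 185 CPM in persister libraries, a log2 fold change of 0.98 (SE 0.10, edgeR adjusted p = 0.00170). LAMB3-203, from the proximal start, had 16.9 ± 2.76 and 13.1 ± 3.86 CPM, a difference within the spread (log2 fold change -0.37, SE 0.25, edgeR adjusted p = 0.417). Their count ratio went from 5.19 ± 0.37 to 14.3 ± 6.06, where persister library 3 stood at 21.3 and the others at 10.8.

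DST-205, of 2649 codons, is the epithelial form, BPAG1e, that sits in hemidesmosomes, and it was not called. It had 36.9, 28.7 and 34.5 CPM in parental and 32.7, 27.1 and 30.7 CPM in persister libraries, overlapping groups, with a log2 fold change of -0.14 (SE 0.12, edgeR adjusted p = 0.499). DST-207, a long form from an upstream start, had 79.0 ± 16.3 and 162 ± 41.8 CPM (log2 fold change 1.04, SE 0.24, edgeR adjusted p = 0.0349), and was not called in edgeR. The upstream transcripts DST-207, DST-202 and DST-204 summed to 124 to 194 CPM in parental and 242 to 352 CPM in persister libraries. Their count per count of DST-205 and DST-201, grouped here as epithelial transcripts, went from 2.24 ± 0.12 to 3.39 ± 0.88, with no overlap. DST-205 begins near the epithelial start printed above, while DST-201 was placed in the group without such a match. Of 16 DST transcripts tested edgeR called 1, DST-227, of 258 codons, and DESeq2 called 6, 4 of them higher, DST-207 included. DST-227 had 58, 45 and 33 counts in parental and 0 in each persister library, and was at least 14.2-fold lower against a floor of 3 counts per library.

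Of the PLEC transcripts tested, edgeR called 3 of 9 and DESeq2 called 5 of 9, all higher. PLEC-201 rose most, from 26.8 ± 3.27 to 87.3 ± 12.1 CPM (log2 fold change 1.70, SE 0.14, edgeR adjusted p = 8.31e-04). PLEC-202, the most abundant, went from 147 ± 15.7 to 249 ± 30.6 CPM and PLEC-209 from 29.5 ± 2.08 to 59.1 ± 8.07 CPM. PLEC-205 had 54.8 ± 14.6 and 118 ± 20.6 CPM (edgeR adjusted p = 0.0232) and PLEC-208 26.3 ± 13.4 and 78.7 ± 2.70 CPM (edgeR adjusted p = 0.0279), which DESeq2 called and edgeR did not. PLEC-204 went the other way, 44.4 ± 5.11 against 30.4 ± 8.22 CPM, without a call (log2 fold change -0.54, SE 0.21, edgeR adjusted p = 0.145). Plectin transcripts differ in their first exons, which give the protein different targets in the cell.

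**Figure D4:**
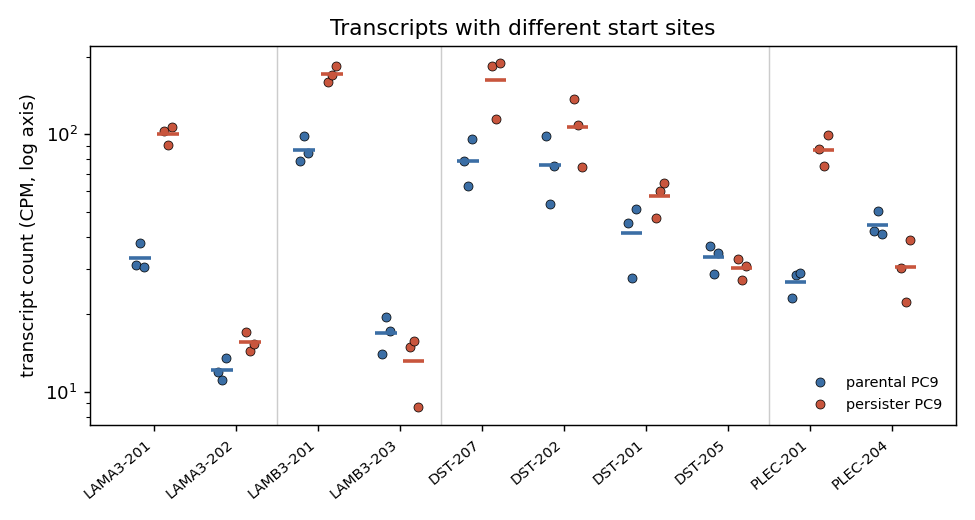
Transcript counts (CPM, log axis) in the 3 parental (blue) and 3 persister (red) libraries with bars at the means. LAMA3-201, LAMB3-201 and PLEC-201 lie higher in every persister library, while the points of LAMB3-203 and of the epithelial DST-205 overlap between groups.

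The most abundant ITGB4 transcripts fell. ITGB4-203 and ITGB4-206, both of the 1752 codons of β4A, summed to 373, 418 and 387 CPM in parental and 117, 123 and 127 CPM in persister libraries. ITGB4-201, of the 1822 codons of β4C, went from 22.9 ± 2.09 to 4.85 ± 0.53 CPM (log2 fold change -2.24, SE 0.12, edgeR adjusted p = 2.29e-04). Of 8 ITGB4 transcripts tested 4 were called, all lower, by edgeR and by DESeq2. ITGB4-202, of 1805 codons, had 0, 119 and 0 counts in parental and 36, 30 and 33 counts in persister libraries, with overlapping groups and no call (log2 fold change -0.18, edgeR adjusted p = 0.966). ITGA6-201, which holds the 130-base exon at chr2:172501772-172501901 that marks α6A, fell from 330 ± 16.8 to 265 ± 6.39 CPM (log2 fold change -0.31, SE 0.05, edgeR adjusted p = 0.00702). Its count per count of ITGA6-202, the α6B form without that exon, was 16.1 ± 4.09 and 17.9 ± 3.23, with overlapping groups. The most abundant CD151 transcript, CD151-202, had 59.3 ± 10.9 and 95.1 ± 7.76 CPM (edgeR adjusted p = 0.0272). CD151-203 had 13.6 ± 2.94 and 22.5 ± 5.13 CPM (edgeR adjusted p = 0.0915), and CD151-201 had 11.6 ± 5.87 and 18.2 ± 1.05 CPM (edgeR adjusted p = 0.288). DESeq2 called the first pair of these and edgeR called neither.

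A change in the mix of transcripts within a gene was tested with edgeR's diffSpliceDGE and its Simes p. None of the 8 genes passed an adjusted p of 0.01, against 1.93% of 10545 genes, and 4 of the 8 had an unadjusted p under 0.05, which held for 7.74% of those genes. COL17A1 had an adjusted p of 0.0129 on its matched transcripts and of 7.90e-04 with the unmatched transcript assigned to it. DST had 0.0340, PLEC 0.208, LAMB3 0.211 and LAMA3, ITGB4, ITGA6 and CD151 each 1, with an unadjusted p of 0.139 for LAMA3. A difference in usage between the forms of LAMA3, LAMB3 or PLEC described above was therefore not called, and their ratios are given as values. Without parental library 1 PLEC passed the limit (adjusted p = 0.00783), and without parental library 2 ITGB4 did (adjusted p = 0.00395). In all, 14 ratios between counts were computed, chosen after values were seen. In 11 of them the exact two-sided permutation p was 0.1, the smallest that 3 libraries against 3 allow, or 0.127 after Benjamini-Hochberg adjustment.

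The surrounding pathway was followed in 7 lists of 120 genes, written from general knowledge with earlier results of these data known. Of 109 tested 84 were called, 49 higher and 35 lower, with a median log2 fold change of 0.14. This is 77.1%, beside the 56.8% of all genes.

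Of the basement membrane partners of laminin-332, 11 rose, 4 fell and 6 of the 21 tested were not called, with a median log2 fold change of 0.84 against -0.01 over all genes. LAMC1, the γ1 chain of most other laminins, rose from 240 ± 5.07 to 562 ± 9.34 CPM, COL4A5, a collagen IV chain, from 52.3 ± 0.47 to 126 ± 3.71 CPM and FRAS1, an extracellular matrix protein of the epidermal basement membrane, from 26.4 ± 1.86 to 108 ± 9.74 CPM. COL7A1, the collagen of the anchoring fibrils that laminin-332 holds, was added after its value was seen. It went from 22.9 ± 2.58 to 80.6 ± 5.92 CPM, a log2 fold change of 1.82 (SE 0.08, edgeR adjusted p = 9.52e-09). LAMA4, the α chain of laminins of vessels and mesenchyme, fell from 62.0 ± 1.77 CPM by 2.05 on the log2 scale, and COL4A1 and LAMB2 fell by log2 fold changes of -1.04 and -0.34. The summed fibroblast markers given above rose with this list. That sum is nearly all COL1A1, with a mean of 10.2 CPM in parental and 28.3 CPM in persister libraries. The fibroblast markers not tested reached at most 10 counts in any library. Whether this bears on the list was not tested.

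The other matrix receptors split evenly, with 4 higher, 4 lower and 5 of 13 not called, and a median log2 fold change of 0.12. ITGB1, the β1 chain with which α6 can also pair, rose from 860 ± 38.0 to 1400 ± 35.4 CPM (log2 fold change 0.70, SE 0.04, edgeR adjusted p = 7.08e-08). ITGAV, an integrin chain for vitronectin and fibronectin, rose by 1.27 and DAG1, dystroglycan, by 0.69. ITGA3, whose integrin α3β1 is the other main laminin-332 receptor, fell from 385 ± 23.5 to 258 ± 6.70 CPM (log2 fold change -0.58, SE 0.05, edgeR adjusted p = 1.06e-06). ITGB5 and BCAM, a laminin α5 receptor, had log2 fold changes of -0.44 and -0.37.

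Of the tetraspanins other than CD151, 3 rose, 6 fell and 1 of 10 was not called, with a median log2 fold change of -0.38. TSPAN1 fell from 92.4 ± 2.06 to 9.84 ± 0.40 CPM, a log2 fold change of -3.23 (SE 0.05, edgeR adjusted p = 7.03e-12), CD9 by 0.60 and TSPAN15, a partner of the protease ADAM10, by 0.52 on the log2 scale. The rises were small, 0.14 for TSPAN3, 0.14 for TSPAN14 and 0.21 for CD81, and each lost its call when libraries were scaled by total count or upper quartile. Each also lost it without parental library 3 or persister library 2 or 3, and CD81 without parental library 1 or with gene counts summed from transcripts as well.

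**Figure D5:**
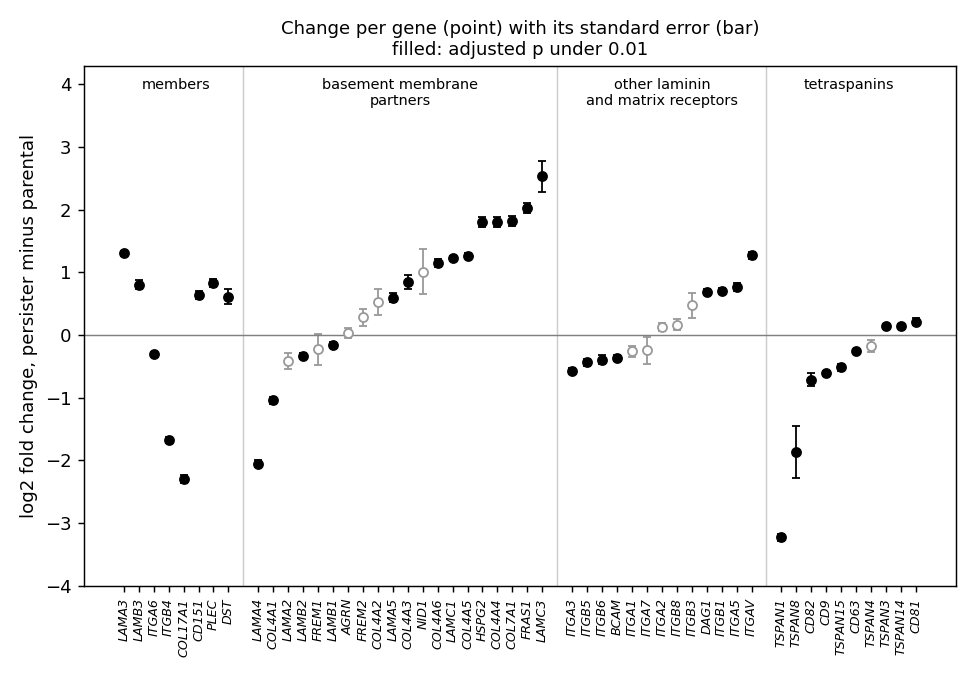
Log2 fold change of each tested gene (persister minus parental, point) with its standard error (bar), for the 8 genes and for 3 of the pathway lists, 1 gene left out. Filled points have an edgeR adjusted p under 0.01, and the 8 genes span -2.30 for COL17A1 to 1.31 for LAMA3.

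Inside the cell, 3 of 9 keratins rose and 5 fell, with a median log2 fold change of -0.80. KRT17, a keratin of activated epithelium, rose from 27.8 ± 1.66 to 341 ± 10.1 CPM, a log2 fold change of 3.62 (SE 0.05, edgeR adjusted p = 4.12e-12), and KRT7 by 0.46. KRT14 was also called higher at a mean of 0.0785 and 0.499 CPM, and it lost the call without parental library 3 or persister library 1 or 2. It shares much of its sequence with KRT17, so its few counts are uncertain. KRT19 and KRT18, keratins of simple epithelium, fell by 1.03 and 0.92 on the log2 scale, and KRT15 fell from 13.3 ± 0.62 to 3.21 ± 0.40 CPM. Of the other plakins and desmosome genes, 6 of 13 rose and 4 fell, with a median of 0.09. EPPK1, epiplakin, had a log2 fold change of 1.62, PKP1 of 1.59 and PKP4 of 0.59, while the desmosome genes PKP2 and DSG2 had -0.60 and -0.40, and the plakin PPL had -0.41.

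Among 20 tested genes of processing of and signalling to hemidesmosomes, 7 rose and 8 fell, with a median log2 fold change of 0.09. FYN, a kinase known to act on β4, rose from 47.7 ± 0.87 to 127 ± 2.53 CPM, PTPN11, the phosphatase SHP2, by 0.63 and EGFR, the target of erlotinib, by 0.50 on the log2 scale. SHC1, the adaptor that binds phosphorylated β4, fell from 281 ± 22.8 to 176 ± 6.42 CPM. TP63, a regulator of basal epithelial adhesion genes, fell from 3.91 ± 0.24 to 0.401 ± 0.072 CPM, and KLF5 had a log2 fold change of -0.62. Of the focal adhesion core, 15 of 23 rose and 4 fell, with a median of 0.25. FERMT2, the integrin activator kindlin-2, rose from 18.1 ± 0.59 to 55.4 ± 0.40 CPM and LIMS2 by 2.96 on the log2 scale. TNS4 had a log2 fold change of -1.01, PTK2, the focal adhesion kinase, of -0.27 and PARVB of -0.22. PARVB lost its call without parental library 3 or persister library 1 or 2.

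The genes whose profile over the 6 libraries lay nearest to those of COL17A1 and ITGB4 were found by the Euclidean distance of log2 CPM after its mean was subtracted, among 12276 genes. For COL17A1 these were SCNN1A at 0.160, HMGA2 at 0.180 and ANO1 at 0.185 log2 units. For ITGB4 they were NR1H3 at 0.0858, MLPH at 0.0889 and MYEOV at 0.0923 log2 units. With 6 libraries in 2 groups, likeness reflects mostly a similar fold change.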

How the data were processed

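RNA of 3 parental and 3 persister PC9 libraries was analysed, grouped by the sample labels. The authors made poly-A libraries, trimmed and filtered the reads with bases2fastq and FASTP, and pseudoaligned them with Kallisto 0.46.1 to Ensembl release 96 transcripts of GRCh38. They deposited Kallisto's estimated counts for gene symbols and for transcripts, given as whole numbers and not normalized. Total gene counts were 29476725 to 34893782 per library. Spread between replicates, rather than counting, sets the precision. As the persister cultures were pooled, p-values measure the spread between these libraries. That spread is between pools in the persister group and between cultures in the parental group. A pool averages over its cultures, so the spread of single persister cultures is not measured.

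Genes passing filterByExpr were normalized with TMM and tested in R 4.3.3 with edgeR 4.0.16 (glmQLFit and glmQLFTest, two-sided, no block, Benjamini-Hochberg over all genes tested, limit 0.01). The standard error is the fold change divided by the square root of F. Transcripts were tested likewise. Of 188753 transcripts 167067 were matched by identifier to GENCODE 44, with 95.8% of the counts. The gene, transcript and usage tests were checked on simulated counts with known changes. Each transcript was simulated independently, so the check does not cover the division of reads among transcripts. A simulation without any change was run for genes only. Alternatives used DESeq2 1.42.0 and limma 3.58.1.

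Named are the 8 genes, their transcripts with 10% or more of the gene's count (others, such as DST-227 and ITGB4-202, were named after their values were seen), in each list the 3 risers and 3 fallers with the smallest p, and the 3 genes nearest in profile. Exceptions are marked, and certain selected genes are not reported here. The genes and lists were chosen with earlier results of these data known. The study combined these libraries with those of another laboratory, which were not analysed here.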

Additional observations from a re-analysis of the deposited data

How the results depend on the processing

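Over 18 alternatives each of the 8 genes kept its direction, and each kept its call except where a fold change above 2 was also required. The alternatives of an adjusted p under 0.05 and of a fold change above 2 reused the main fit. Neither could change a direction, and the looser limit could not lose a call. The fold change limit left 3 genes, 1 of them higher, and dropped ITGA6 (-0.30), LAMB3 (0.81), DST (0.62), PLEC (0.83) and CD151 (0.65). The same limit left 30 pathway genes, 18 higher and 12 lower. The widest ranges were COL17A1, -2.36 to -1.82, the latter on matched transcripts, and DST, 0.46 to 0.71. The count of called transcripts was 24 with DESeq2, 21 at an adjusted p under 0.05 and 3 with the replicate block. With each library left out it was 6 to 9. Genes with changed transcript usage were 2 by the F test (COL17A1 and DST), 2 at an adjusted p under 0.05, 0 to 1 with a library left out and 1 with the unmatched transcript assigned to COL17A1, an alternative chosen after seeing the data. With a library left out, the matched COL17A1 transcripts gave -2.10 to -1.41. The deviations of libraries of the same replicate number had correlations of 0.124, 0.0236 and 0.0215. Those of unlike numbers ran from -0.117 to 0.0971, and the numbers were not taken as pairs. A replicate block left all 8 genes called and lowered the standard error of each, for DST from 0.12 to 0.05. Over all genes, 8671 were called with the block and 8307 without it. The causes were not tested.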
